A study of Mus musculus with 12 samples.

Results

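The 10 genes described here, *Apoe*, *Lpl*, *Spp1*, *Gpnmb*, *Itgax*, *Cst7*, *Igf1*, *Trem2*, *Tyrobp* and *Cd9*, are markers of disease-associated microglia. They were taken by their symbol from the deposited count table, in which they are 10 of 55487 genes, and all 10 had enough reads to be tested. Microglia are the resident macrophages of the brain and retina. Around amyloid plaques, dying neurons and damaged myelin they switch off genes of the resting state and switch on genes for lipid uptake, phagocytosis and lysosomal digestion, a state named disease-associated microglia (DAM). The late stage of this state is known to need TREM2, a surface receptor for lipids and apolipoproteins that signals through the adaptor TYROBP.

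By their source labels, the libraries came from BV2, an established line of immortalised mouse microglia, so the results describe 1 cell line. Cells in normal glucose (NG) and in high glucose (HG) were each sequenced without and with CD200Fc at 50 ng/mL, which joins CD200 to an antibody Fc fragment and engages CD200R1, an inhibitory receptor of myeloid cells. Each of the 4 groups, written NG, HG, NG+CD200Fc and HG+CD200Fc, had 3 libraries. The sources used here give no glucose concentration and no treatment time. They also do not say whether libraries came from separate cultures, and the p-values therefore rest on a spread between libraries that could be technical. No group was an Fc-only or osmotic control. The labels' treatment protocol describes retinas dissected from mice and sorted GFP-positive cells, which goes against the BV2 label. The comparisons address what high glucose and CD200 signalling do to microglial gene expression.

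Total counts ran from 21454087 to 31905649 per library. Levels are in CPM, counts scaled to the library total after TMM scaling. All 10 markers that define macrophages and microglia had a mean of at least 1 CPM over the 12 libraries. Their summed level was 7799 to 9379 CPM in HG, above the 6271 to 7274 CPM of the other groups. This rise was not shared by all 10. In HG against NG 5 passed the test described below as higher and 4 did not pass, while *Cd68* was lower by 0.19 (log2). Summed markers of neurons, T and B cells and fibroblasts stayed at or below 2.48 CPM in every library, those of oligodendrocytes and erythrocytes at or below 4.47 CPM, and those of endothelium at 9.07 to 14.1 CPM. A mean of at least 1 CPM was reached by 3 of 7 photoreceptor markers, 3 of 7 of Müller glia and astrocytes and 3 of 7 of endothelium. For dendritic and perivascular cells 2 of 6 reached it, and 1 photoreceptor marker was at 0 in all libraries. Photoreceptor markers summed to 30.4 to 46.6 CPM and those of Müller glia and astrocytes to 142 to 169 CPM. Those of dendritic and perivascular cells summed to 99.2 to 112 CPM in HG against 67.2 to 85.6 CPM elsewhere. The part of these differences in the results was not tested. *Sall1*, a factor that defines microglia in tissue, was at 0 in all but 1 library, which had 1 read. Library HG replicate 2 stood apart, where nuclear rRNA genes took 1.49% of the counts and no more than 0.119% elsewhere. *Txnip*, a gene known to be induced by glucose, rose in HG against NG by 0.84 ± 0.062 (log2, SE). It was higher by 0.33 ± 0.062 in HG+CD200Fc against NG+CD200Fc, and fell by 0.57 ± 0.061 in HG+CD200Fc against HG. The part of this fall in the HG+CD200Fc results was not tested.

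Upstream sequences are shown for the 3 members whose results differ by glucose and whose window lies outside annotated UTRs, to show the DNA at which their regulators would act. The RefSeq promoter table (GRCm38.p6) held 8 of the 10 members, and not *Lpl* and *Tyrobp*. Motif distances count from the RefSeq start. That start lies 0 bases from the gene start annotated in GENCODE M21 for *Trem2*, 7 for *Spp1* and 28 for *Gpnmb*. The 250 bases before the start are given 5′ to 3′ on the plus strand of chr17:48346151-48346400 for *Trem2*, chr5:104434861-104435110 for *Spp1* and chr6:49036268-49036517 for *Gpnmb*, with motif matches in capitals.
Trem2: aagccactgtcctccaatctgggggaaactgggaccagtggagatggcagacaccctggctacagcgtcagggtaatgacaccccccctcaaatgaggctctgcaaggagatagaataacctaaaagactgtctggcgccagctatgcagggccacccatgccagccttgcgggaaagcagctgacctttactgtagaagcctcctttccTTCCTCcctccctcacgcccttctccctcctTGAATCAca
Spp1: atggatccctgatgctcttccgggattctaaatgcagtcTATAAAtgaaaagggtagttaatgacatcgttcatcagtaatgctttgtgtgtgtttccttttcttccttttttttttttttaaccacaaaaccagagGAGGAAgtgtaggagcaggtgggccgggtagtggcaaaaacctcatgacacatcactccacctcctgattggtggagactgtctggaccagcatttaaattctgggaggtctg
Gpnmb: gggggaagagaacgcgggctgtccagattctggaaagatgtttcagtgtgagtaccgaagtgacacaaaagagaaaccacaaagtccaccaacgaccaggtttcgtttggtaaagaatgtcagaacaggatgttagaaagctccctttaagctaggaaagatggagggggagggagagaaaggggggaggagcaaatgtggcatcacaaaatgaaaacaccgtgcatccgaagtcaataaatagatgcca

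Motifs were searched on both strands, 6 in all. The first was GAGGAA, the core bound by the macrophage factor PU.1. For E-box factors CACGTG was searched, and for factors of the MITF type CATGTG. The AP-1 site was written TGANTCA. The STAT site was written TTCNNNGAA. The TATA box was written TATAAA. In the windows of the members no 2 of these matches overlapped. The *Trem2* window held the PU.1 core, read as TTCCTC on this strand 40 to 35 bases before the start, and an AP-1 match 9 to 3 bases before it. The *Spp1* window held the PU.1 core 113 to 108 bases and TATAAA 211 to 206 bases before the start. The *Gpnmb* window held none of the 6 letter patterns. Over the 8 members with a window, GAGGAA was found in 4, against 23.3% of all 32851 windows of this length. TGANTCA was found in 3 against 6.75%, CATGTG in 1 against 12.3%, TATAAA in 1 against 12.4%, and CACGTG (6.02%) and TTCNNNGAA (7.02%) in 0. The window of *Igf1* lies entirely in annotated UTR sequence, and its RefSeq start is 2846 bases from the gene start in GENCODE M21. The windows of *Cd9* and *Itgax* hold 31 and 3 bases of annotated UTR. Which transcripts these UTRs belong to was not examined.

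The members did not move together with glucose. In HG against NG, the lipase *Lpl*, the growth factor *Igf1*, the receptor *Trem2* and the matrix protein *Spp1* fell, and the lysosomal glycoprotein *Gpnmb* rose, so 5 of 10 members passed the test (edgeR quasi-likelihood, Benjamini-Hochberg adjusted p under 0.05) where 24.6% of the 19182 genes tested did. By direction, 4 members were lower against 12.9% of all genes and 1 was higher against 11.7%. The share of 24.6% is 4720 genes, against 3326 without NG replicate 1, 3511 without HG replicate 2 and 5815 by limma voom. CD200Fc in high glucose moved *Lpl* and *Igf1* up and *Gpnmb* and *Cd9* down (4 of 10 members, against 17.8% of all genes). By direction, 9.46% of all genes were higher and 8.3% lower there. CD200Fc in normal glucose gave 0 passing members and 0% of all genes. The median log2 change of the members was -0.16 in HG against NG (0.021 over all genes) and -0.13 in HG+CD200Fc against HG (-0.021 over all genes). These 2 comparisons share the HG libraries, so a high or low HG value moves both in opposite directions. In these bulk libraries fewer cells of a type and less RNA per cell cannot be told apart.

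**Figure D1:**
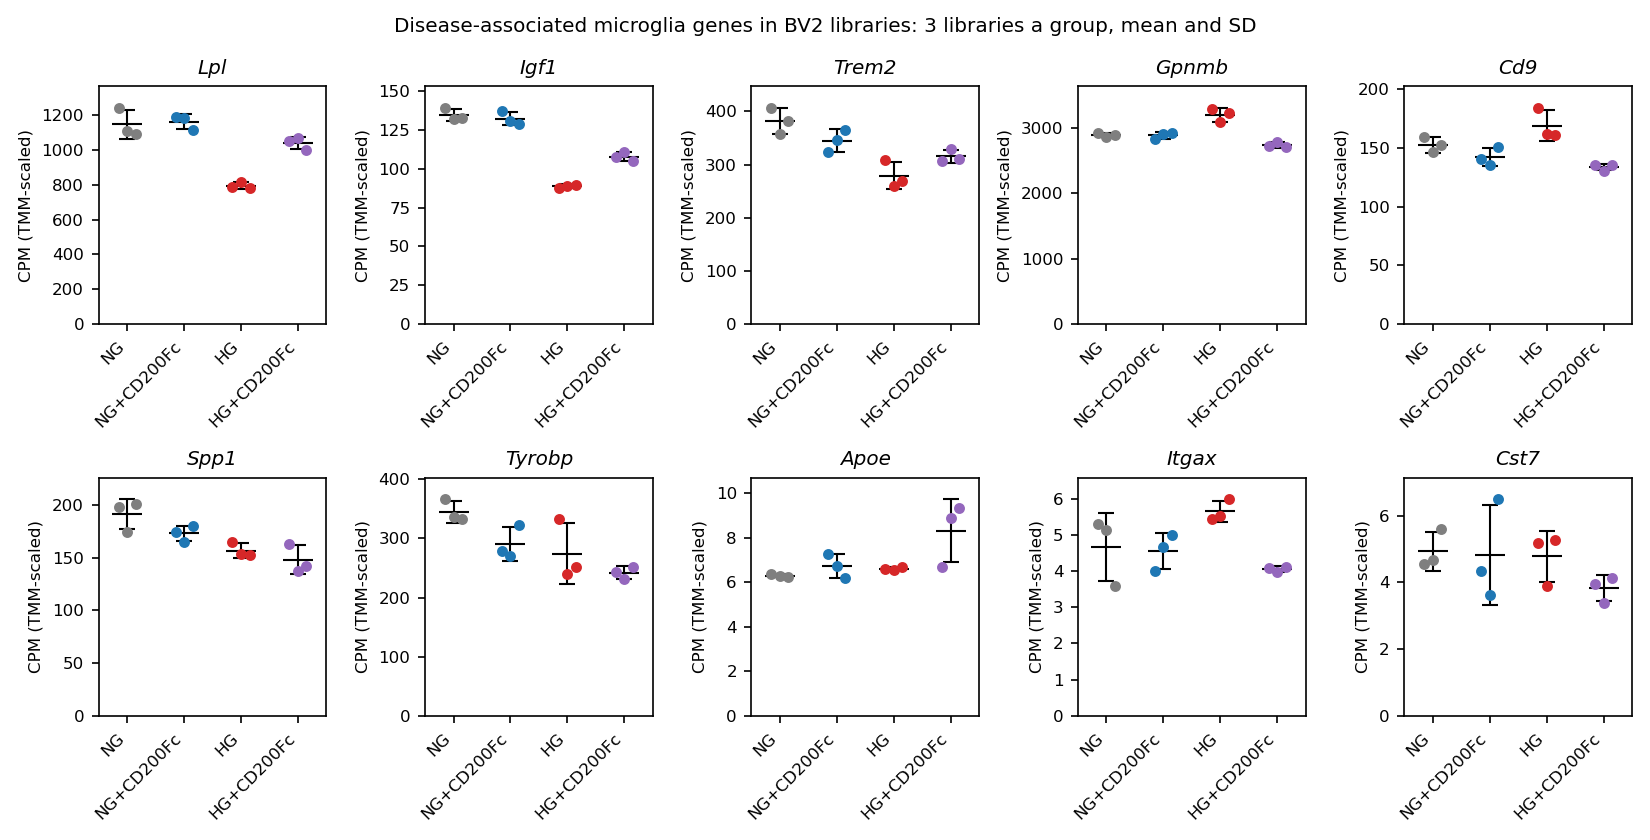
Level of each of the 10 genes (y axis, CPM after TMM scaling, from 0) in the 4 groups (x axis); points are the 3 libraries, bars the mean and SD. *Lpl* and *Igf1* have their lowest 3 libraries in HG, at 778 to 817 and 87.3 to 89.7 CPM, and *Gpnmb* its highest 3, at 3083 to 3291 CPM.

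Per kilobase of exon, which allows levels to be compared between genes, the members spanned a wide range. *Gpnmb* had a mean of 449 CPM per kb and *Tyrobp* 432, ranks 52 and 58 of the 19131 tested genes with a known length. *Spp1* (101), *Lpl* (98.8), *Cd9* (73.1) and *Trem2* (66.8) followed, and *Igf1* had 11.7. *Cst7* (4.65), *Apoe* (3.26) and *Itgax* (0.985) were low, although *Apoe* is among the most abundant transcripts of DAM in tissue. *Gpnmb* and *Lpl* together made up 76.4% to 81.0% of the members' summed CPM, and the 10 genes held 0.461% to 0.537% of all counts.

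**Figure D2:**
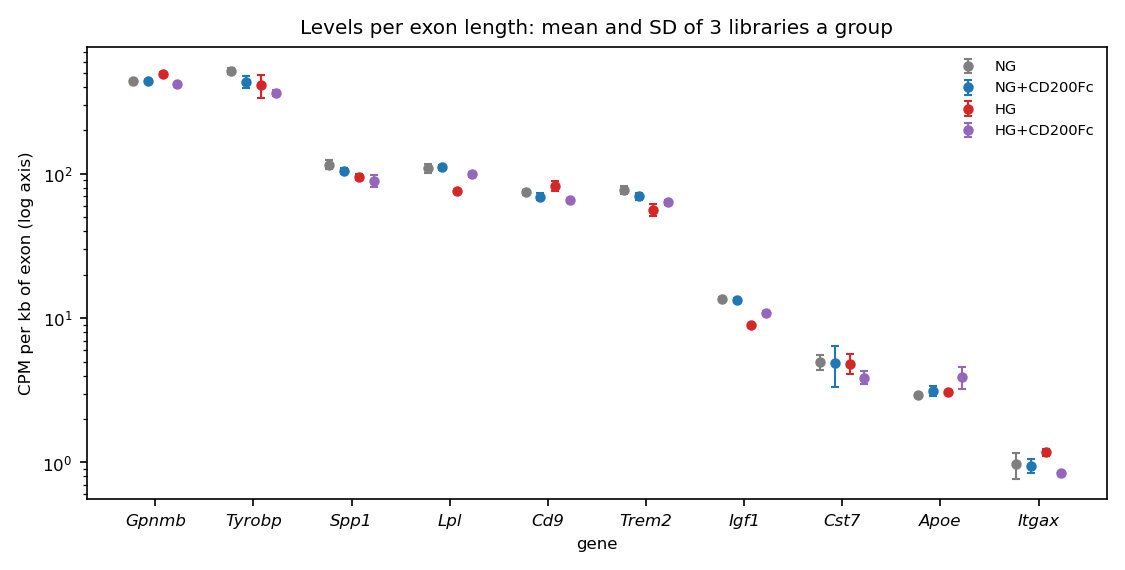
Level per kilobase of exon (y axis, CPM per kb, log axis) of the 10 genes (x axis) in the 4 groups; points are means of 3 libraries and bars the SD. *Gpnmb* and *Tyrobp* lie highest, with means of 449 and 432 over the 12 libraries, and *Cst7*, *Apoe* and *Itgax* lie below 10.

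*Trem2*, the receptor (ENSMUSG00000023992, chr17:48346401-48354147), was lowest in HG. Its 3 libraries had 407, 357 and 382 CPM in NG, 323, 347 and 365 in NG+CD200Fc, 308, 259.5 and 269 in HG, and 306, 330 and 311 in HG+CD200Fc. All HG libraries were below all NG libraries, while the lower end of the HG+CD200Fc range overlapped that of HG. *Trem2* fell by 0.45 ± 0.064 (log2, SE, n = 3 against 3; adjusted p = 6.60e-06 by edgeR) in HG against NG. On the linear scale it fell by 27.0%. It differed by 0.18 ± 0.064 in HG+CD200Fc against HG, which missed the threshold (edgeR adjusted p = 0.0523). Without HG replicate 1 that difference was 0.26 and passed (adjusted p = 0.00509), and it passed in 11 of 20 alternatives. Leaving out 1 library gave 0.13 to 0.26, and adjusted p ran up to 0.225 over the alternatives. Against NG, HG+CD200Fc remained lower by -0.28 ± 0.063 (adjusted p = 0.00289).

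*Tyrobp*, the adaptor that carries the signal of TREM2 and related receptors (ENSMUSG00000030579, chr7:30413760-30417585), had 367, 336 and 333 CPM in NG and 279, 270.2 and 324 in NG+CD200Fc. In HG the libraries read 333, 239.5 and 251 CPM, and in HG+CD200Fc 244, 231 and 252. The highest HG library lay just under the lowest NG library, and the other two near the HG+CD200Fc level. The HG against NG difference was -0.33 ± 0.11 and missed the threshold (edgeR adjusted p = 0.0514). Without HG replicate 1 it was -0.51 with an adjusted p of 2.81e-06, and it passed in 9 of 20 alternatives. Leaving out 1 library gave -0.51 to -0.24, and adjusted p ran up to 0.169 over the alternatives. HG+CD200Fc against NG was the only comparison in which *Tyrobp* passed, where it fell by 29.9% (-0.51 ± 0.11, adjusted p = 0.00771). The share of counts in ribosomal protein genes was 2.41% in HG replicate 1 and 1.94% and 2.10% in the other HG libraries. It was 2.41% to 2.67% in NG, 2.14% to 2.51% in NG+CD200Fc and 1.80% to 1.95% in HG+CD200Fc. Its part in the *Tyrobp* values was not tested.

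Of 23 genes of TREM2 and TYROBP signalling, 22 were tested, and 3 rose and 2 fell in HG against NG. *Syk*, the kinase that docks to phosphorylated TYROBP, rose by 0.54 ± 0.050 (edgeR adjusted p = 7.76e-09), from 368 ± 12.8 to 535 ± 12.6 CPM (SD, n = 3). *Vav3*, an exchange factor downstream, rose by 0.22. The TYROBP-coupled receptors *Clec5a* and *Trem1* fell by 0.72 and 0.73. The receptor *Sirpb1a* of the same list rose by 1.17 ± 0.38 (edgeR adjusted p = 0.0259). In HG+CD200Fc against HG 3 of the 22 rose and 1 fell, with *Clec5a* up by 0.50 and *Plcg2*, a phospholipase of the pathway, up by 0.27. Neither of the sheddases of TREM2 on the list passed in HG against NG, with *Adam10* at -0.037 and *Adam17* at 0.046.

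*Lpl*, the lipase that releases fatty acids from lipoproteins (ENSMUSG00000015568, chr8:68880491-68907448), had 1241, 1105 and 1089 CPM in NG and 1190.2, 1181 and 1114 in NG+CD200Fc. HG had 789, 817 and 778 CPM, and HG+CD200Fc had 1051, 1068 and 998. HG was below every other group without overlap, and HG+CD200Fc lay between HG and both NG groups without overlap. *Lpl* fell by 0.53 ± 0.053 in HG against NG (edgeR adjusted p = 3.96e-08), where its level dropped by 30.6%. It rose by 0.39 ± 0.053 in HG+CD200Fc against HG (adjusted p = 5.91e-06). The remaining difference of HG+CD200Fc from NG was -0.14 ± 0.053 (adjusted p = 0.0625), which missed the threshold and passed in 9 of 20 alternatives.

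*Apoe*, the main lipid carrier of glia (ENSMUSG00000002985, chr7:19696109-19699188), ranged from 6.18 to 7.26 CPM in NG, NG+CD200Fc and HG. HG+CD200Fc had 6.69, 8.89 and 9.35 CPM, so 2 of its 3 libraries lay above all others. *Apoe* passed in none of the 6 contrasts, and the difference of HG+CD200Fc from NG was 0.40 ± 0.15 (edgeR adjusted p = 0.0558). Without HG+CD200Fc replicate 1 that difference was 0.53 (adjusted p = 0.0142), and it passed in 5 of 20 alternatives. Without the same library the difference from HG also passed (0.47, adjusted p = 0.0333). Leaving out 1 library gave 0.30 to 0.53 for the difference from NG and 0.23 to 0.47 for that from HG. Adjusted p ran up to 0.243 and 0.423 over the alternatives. Each library held 150 to 204 *Apoe* reads, and the interval of *Apoe* was wide, from -0.23 to 0.37 in HG against NG. The part of read depth in this width was not tested.

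Of 21 genes of the *Apoe* cluster, lipoprotein receptors and lipase partners, 15 were tested, and 3 rose and 3 fell in HG against NG. *Abca1*, the exporter that loads lipid onto apolipoproteins, rose by 0.58 ± 0.054, from 195 ± 7.57 to 290.6 ± 9.77 CPM. *Lrp8*, an apolipoprotein receptor, fell by 0.53 ± 0.064, and the fatty acid transporter *Cd36* fell by 0.72. With CD200Fc in high glucose *Abca1* fell by 0.54 and *Lrp8* rose by 0.64 relative to HG.

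*Igf1*, the secreted insulin-like growth factor (ENSMUSG00000020053, chr10:87858265-87937042), had 139, 132 and 133 CPM in NG and 137, 131 and 129 in NG+CD200Fc. HG had 87.3, 88.8 and 89.7 CPM, and HG+CD200Fc had 107, 111 and 105. The order was HG, HG+CD200Fc and then both NG groups, with no overlap except between the NG groups. *Igf1* fell by 0.60 ± 0.054 in HG against NG (edgeR adjusted p = 4.10e-09), where its level dropped by 34.1%. This was the largest change among the members in that contrast. It rose by 0.28 ± 0.054 in HG+CD200Fc against HG (adjusted p = 3.71e-04). It was still lower than NG+CD200Fc, by -0.30 ± 0.053 (adjusted p = 0.00231).

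Of 13 genes of the IGF receptor and binding protein list, 7 were tested, and 2 rose and 1 fell in HG against NG. *Igfbp4*, which binds IGF1 outside the cell, fell by 0.38 ± 0.060. The insulin receptor *Insr* rose by 0.39 and the adaptor *Irs2* by 0.35. With CD200Fc in high glucose *Igfbp4* rose by 0.51 and the receptor *Igf1r* by 0.36 against HG. The *Igfbp4* level was 357 ± 11.5 CPM in NG, 275 ± 23.5 in HG and 392 ± 27.9 in HG+CD200Fc.

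*Spp1*, osteopontin, a secreted ligand of integrins and CD44 (ENSMUSG00000029304, chr5:104435118-104441050), had 198, 175 and 201 CPM in NG and 174, 165 and 179.6 in NG+CD200Fc. HG had 165, 153 and 152 CPM, and HG+CD200Fc had 163, 137 and 142. All libraries of the 2 HG groups lay below those of the 2 NG groups, and within each glucose level the groups overlapped. *Spp1* fell by 0.29 ± 0.065 in HG against NG (edgeR adjusted p = 0.00177). It was lower by -0.23 ± 0.065 in HG+CD200Fc against NG+CD200Fc (adjusted p = 0.0308). That call was lost without NG+CD200Fc replicate 1 or 3, without HG+CD200Fc replicate 2 or 3, and under upper quartile scaling, with adjusted p up to 0.203. HG+CD200Fc against HG was -0.08 (95% interval -0.22 to 0.05). *Spp1* shares 309 exon bases with the unverified gene model *Gm42793* on its strand, so its counts are uncertain to that extent.

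*Gpnmb* (ENSMUSG00000029816, chr6:49036546-49070929), a membrane glycoprotein of lysosomes, had 2914, 2856 and 2887 CPM in NG and 2823, 2913 and 2914 in NG+CD200Fc. HG had 3291, 3083 and 3230.1 CPM, and HG+CD200Fc had 2725, 2791 and 2699.9. HG was above and HG+CD200Fc below all libraries of the other groups, within a total range of 1.17-fold between group means. *Gpnmb* rose by 0.15 ± 0.045 in HG against NG (edgeR adjusted p = 0.0154). That call was lost when any single NG library, HG replicate 1 or 3, or replicate 1 of NG+CD200Fc was left out, with adjusted p up to 0.113. *Gpnmb* fell by 0.23 ± 0.045 in HG+CD200Fc against HG (adjusted p = 6.22e-04), which held in all 20 alternatives.

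Of 13 receptors of *Spp1* and *Gpnmb* and factors of the MITF and TFE family, 2 rose and 6 fell in HG against NG. The integrin chains *Itgav* and *Itga4*, which can bind osteopontin, fell by 0.44 and 0.36, and the syndecan *Sdc4* fell by 0.28. *Itgb3* rose by 2.03 but from 0.36 to 1.46 CPM. With CD200Fc in high glucose *Itgav* rose by 0.45 and *Itga4* by 0.40, and 5 of the 13 rose and 1 fell. *Mitf* (0.031) and *Tfec* (0.0058) missed the threshold in HG against NG.

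*Cd9*, a tetraspanin of the cell surface and of vesicles (ENSMUSG00000030342, chr6:125460266-125494791), had 159, 146 and 152 CPM in NG and 140.3, 136 and 151 in NG+CD200Fc. HG had 184, 162 and 161 CPM, and HG+CD200Fc had 135.3, 130.6 and 135.2. HG was above and HG+CD200Fc below all libraries of the other groups. The HG against NG difference was 0.15 ± 0.060 and missed the threshold (edgeR adjusted p = 0.0719). Without HG replicate 1 it was 0.062 (adjusted p = 0.514), and it passed in 3 of 20 alternatives, namely the replicate block, the stricter filter and upper quartile scaling (adjusted p 0.0219 to 0.0413). *Cd9* fell by 0.34 ± 0.060 in HG+CD200Fc against HG (adjusted p = 1.50e-04). It shares 218 exon bases with *Gm26728* on the opposite strand, and strand use in counting is not given in the sources used here. Of 12 tetraspanins and partners, 1 rose and 4 fell in HG against NG, and 2 rose and 4 fell in HG+CD200Fc against HG. *Tspan4* and *Tspan3* fell by 0.40 and 0.35 in HG, and *Cd53* and *Cd81* fell by 0.59 and 0.29 with CD200Fc in high glucose.

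*Itgax*, the integrin chain CD11c (ENSMUSG00000030789, chr7:128129547-128150657), ranged from 3.57 to 5.30 CPM in NG, 4.01 to 5.00 in NG+CD200Fc, 5.44 to 5.99 in HG and 3.96 to 4.12 in HG+CD200Fc. All 3 HG libraries were the highest of the 12. No contrast passed, with 0.28 ± 0.18 in HG against NG (edgeR adjusted p = 0.271) and -0.48 ± 0.18 in HG+CD200Fc against HG (adjusted p = 0.0644). The first was 0.10 without NG replicate 3 (adjusted p = 0.765), and the second passed in 2 of 20 alternatives, the stricter filter (adjusted p = 0.0492) and limma voom (0.0481). The integrin list, 7 genes, had 3 higher and 0 lower in HG against NG. *Itgam* (CD11b) rose by 0.51 ± 0.10, its partner chain *Itgb2* by 0.14 and the integrin activator *Fermt3* by 0.31. *Itgam* fell by 0.56 in HG+CD200Fc against HG.

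*Cst7*, cystatin F, an inhibitor of lysosomal cathepsins (ENSMUSG00000068129, chr2:150570415-150578944), ranged from 3.38 to 6.49 CPM over the 12 libraries, and neighbouring groups in the order of means overlapped throughout. It passed in none of the 6 contrasts. The interval of HG against NG ran from -0.46 to 0.37, so a change of the size seen for *Lpl* in the downward direction lies just outside it. Among 7 tested cathepsins and cystatins, 0 rose and 3 fell in HG against NG. *Ctsc*, a protease that cystatin F inhibits, fell by 0.28, *Cst3* (cystatin C) by 0.31 and *Ctsl* by 0.15. With CD200Fc in high glucose 4 of the 7 fell, among them *Ctss* by 0.37 and *Lgmn* by 0.27.

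**Figure D3:**
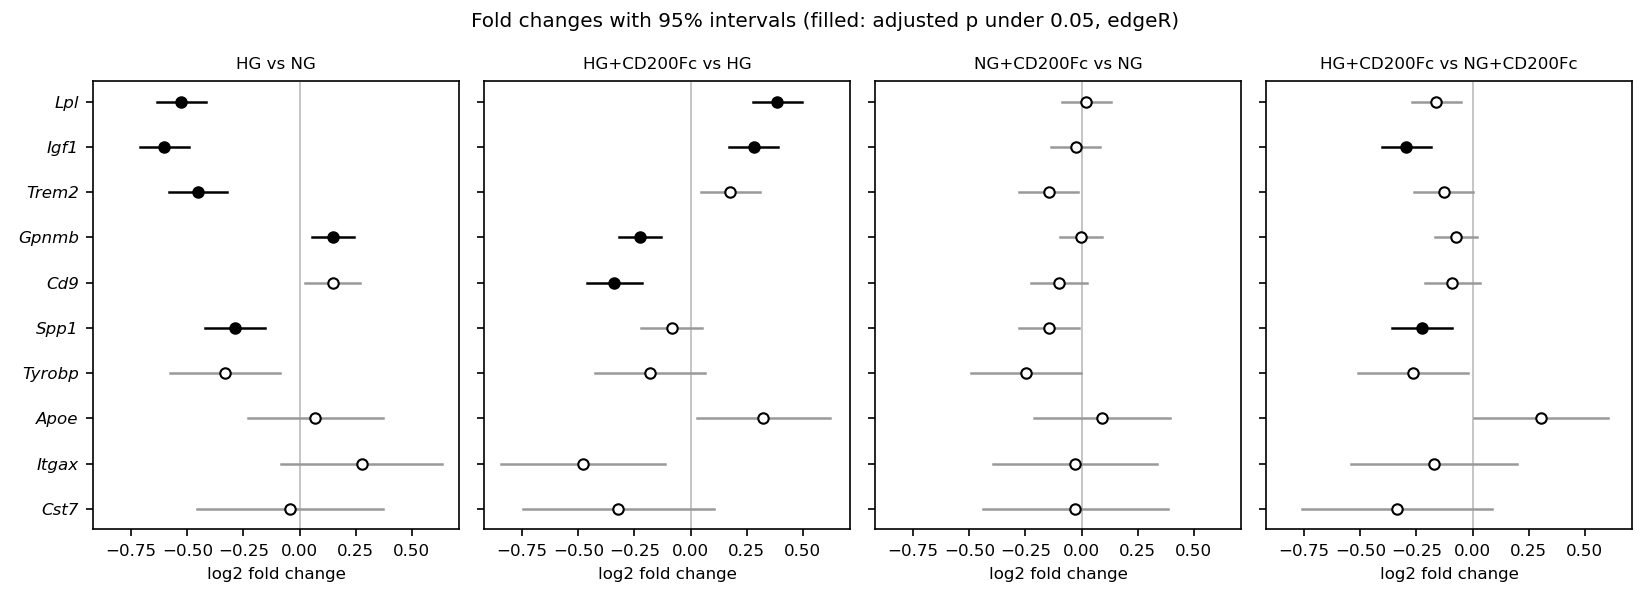
Log2 fold change of each gene with its 95% interval (x axis) in 4 contrasts; filled points passed at an adjusted p under 0.05 by edgeR. *Lpl* and *Igf1* are lower in HG and higher in HG+CD200Fc against HG, and no point is filled in NG+CD200Fc against NG.

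CD200Fc in normal glucose changed none of the 10 genes past the threshold. All 10 missed the threshold of the edgeR test, and 3 had an unadjusted p under 0.05 (2 by DESeq2, 4 by limma voom), where 5.98% of all genes did by edgeR. Intervals of the log2 change ran from -0.09 to 0.13 for *Lpl*, from -0.14 to 0.08 for *Igf1* and from -0.28 to -0.02 for *Trem2*. Only *Tyrobp* had no overlap between the groups (1 of 10 members, 11.9% of all genes).

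The response to CD200Fc differed between glucose levels for 4 of 10 members (7.2% of all genes) by the test of that difference. Of all genes 3.62% had a positive and 3.58% a negative difference. It was more positive in high glucose for *Lpl* (0.37 ± 0.075, edgeR adjusted p = 0.00238), *Igf1* (0.31 ± 0.076, adjusted p = 0.0106) and *Trem2* (0.32 ± 0.090, adjusted p = 0.0241). It was more negative for *Gpnmb* (-0.22 ± 0.064, adjusted p = 0.0291). *Cd9* had -0.24 ± 0.085 and missed the threshold (adjusted p = 0.0938). The calls for *Lpl* and *Igf1* held in all 19 alternatives, those for *Trem2* in 13 and for *Gpnmb* in 9. *Trem2* lost the call without HG replicate 2 or 3, NG replicate 1 or 3, HG+CD200Fc replicate 2, or replicate 1 of NG+CD200Fc. *Gpnmb* lost it in 10 of the 12 fits that left out 1 library, with adjusted p up to 0.106, and kept it without HG replicate 2 and without HG+CD200Fc replicate 2.

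In HG+CD200Fc against NG+CD200Fc 2 of 10 members passed, both lower, *Igf1* and *Spp1*. Of all genes 8.3% passed there, 4.65% higher and 3.65% lower (1593 genes, 892 and 701). That background moved when 1 library was left out: 277 genes passed without HG+CD200Fc replicate 2, 344 and 665 without NG+CD200Fc replicate 3 and 1, 646 without HG+CD200Fc replicate 3, and 2288 without NG+CD200Fc replicate 2. Under upper quartile scaling 1115 genes were higher and 494 lower. The count of members ran from 1 to 4 over the alternatives, and was 4 without HG replicate 1 and 1 without NG+CD200Fc replicate 1 or 3 or HG+CD200Fc replicate 2 or 3. In HG+CD200Fc against NG 5 of 10 members were lower and 0 higher, against 20.3% of all genes called (10.8% lower and 9.56% higher). That share is 3903 genes, against 2217 without NG replicate 1 and 2349 without HG+CD200Fc replicate 2, and under upper quartile scaling 1602 were lower and 2264 higher. *Spp1* (-0.37), *Igf1* (-0.32), *Trem2* (-0.28), *Tyrobp* (-0.51) and *Cd9* (-0.19) were those 5. Groups had no overlap for 9 of 10 members in HG against NG (39.7% of all genes) and for 5 in HG+CD200Fc against HG (31.3%). They had none for 9 in HG+CD200Fc against NG (37.1%) and for 6 in HG+CD200Fc against NG+CD200Fc (27.2%).

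The genes whose log2 CPM followed a member most closely over the 12 libraries were named from 11246 genes with a mean of at least 1 CPM, as a description, since all share the libraries, their depth and their group differences. *Lpl* was followed by *Taf4b* (Pearson r = 0.99), *Clic4* and *Foxr2* (both 0.98). *Igf1* was followed by *Cadm1*, a gene also reported in DAM (0.98), and by *Id1* and *Mat2a* (both 0.97). *Trem2* was followed by *Hmgn1* (0.98), *Ndufa8* and *Polr2f* (both 0.97). *Gpnmb* was followed by *Fcgr4*, the class I antigen gene *H2-K1* and the lysosomal enzyme *Naglu* (all 0.97). *Tyrobp* was followed by the ribosomal protein gene *Rps18*, *Cox8a* of the respiratory chain (both 0.99) and *Lgals1* (0.98). *Cd9* was followed by *Pdia6*, *Prss46* and *Npc2*, and *Spp1* by *Dars* and *Skp1a* (0.96 to 0.98). Among the members, *Lpl* and *Igf1* had an r of 0.95 over the 12 libraries and 0.79 within groups, while *Lpl* and *Gpnmb* had -0.73 and -0.0047.

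Other reported DAM genes moved in both directions. Of 5 genes of the early stage, 3 rose and 0 fell in HG against NG, and 0 rose and 4 fell in HG+CD200Fc against HG. *Lyz2*, lysozyme, rose by 0.63 ± 0.097 (edgeR adjusted p = 4.73e-04) from 2152 ± 74.7 to 3322 ± 445 CPM, and fell by 0.86 with CD200Fc. *B2m*, the light chain of class I antigen molecules, rose by 0.33 and fell by 0.66, and *Fth1*, ferritin heavy chain, rose by 0.33. Of 29 late-stage and other DAM genes, 26 were tested, and 6 rose and 5 fell in HG against NG, while 1 rose and 12 fell in HG+CD200Fc against HG. *Cd52* had 17.1 ± 1.29 CPM in NG, 35.6 ± 7.61 in HG and 12.7 ± 1.14 in HG+CD200Fc, so that it rose by 1.06 and fell by 1.48. *Lilrb4a*, an inhibitory receptor, rose by 0.61 and fell by 0.75. *Plin2*, the coat protein of lipid droplets, rose by 0.47 in HG, and *Ank*, a transporter, fell by 0.34. *Axl* had at most 1 read in any library.

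**Figure D4:**
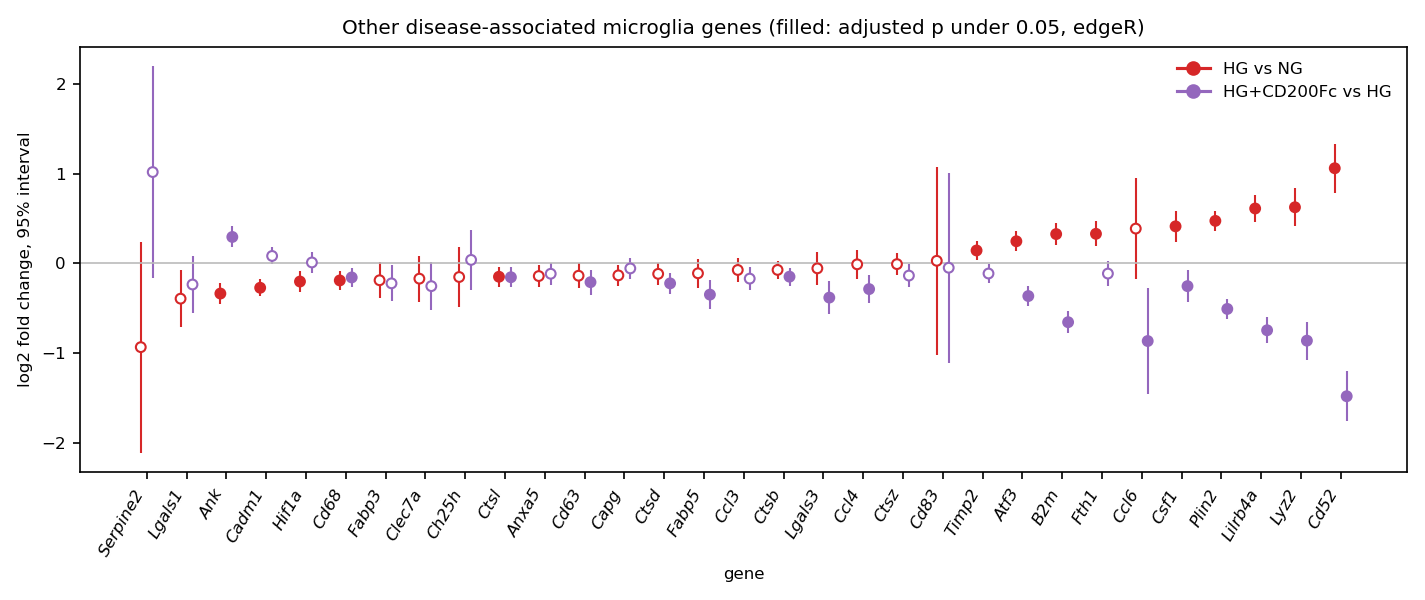
Log2 fold change with 95% interval (y axis) of the other reported DAM genes that were tested (x axis, ordered by HG against NG); filled points passed at an adjusted p under 0.05 by edgeR. *Cd52*, *Lyz2* and *Lilrb4a*, at the right, rose in HG and fell with CD200Fc.

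Of 19 genes of resting microglia, 15 were tested, and 3 rose and 2 fell in HG against NG. *Maf*, a transcription factor, rose by 0.39. *Fcrls* rose by 1.36 and *Selplg* by 0.35, and they fell by 1.49 and 0.49 in HG+CD200Fc against HG. The levels of *Cx3cr1* (0.71 to 4.22 CPM) and *P2ry12* (0.68 to 2.62 CPM), receptors that define resting microglia in tissue, were low in all libraries.

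In the authors' deposited table of comparisons, *Igf1*, *Lpl*, *Trem2* and *Spp1* also had a false discovery rate under 0.05 in HG against NG. *Gpnmb* had a log2 fold change of 0.16 and a false discovery rate of 0.141 in the authors' deposited table, where the edgeR test above passed. *Tyrobp* in HG against NG had -0.32 and 0.00854 in the authors' deposited table, where the edgeR test above did not pass. *Itgax* in HG+CD200Fc against HG had -0.48 and 0.0369 in the authors' deposited table, and *Apoe* in HG+CD200Fc against NG had 0.40 and 0.0357, where the edgeR test above passed for neither.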

How the data were processed

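RNA sequencing libraries, 12 in all, were compared in 4 groups taken from the treatment labels. Per the labels' protocols, ribosomal RNA was depleted with RNase H and cDNA was primed with random hexamers. Build GRCm38 and the tools STAR, featureCounts of Subread, Salmon, limma, edgeR and bcl2fastq appear in the submitters' processing notes. The sources used here give neither the annotation release nor whether counting used strand. The authors deposited raw counts per gene, with no normalization. A second table that the authors deposited gives log2 fold changes, p-values and false discovery rates for 15372 genes and served only for the comparison of calls.

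Of 55774 lines in the count table, 287 repeats with identical counts were dropped. Totals were 21454087 to 31905649 counts per library, and reads carry no molecular identifiers. Genes were filtered with filterByExpr (19182 left) and scaled by TMM, and a quasi-likelihood model with 1 mean per group was fitted over the 12 libraries (edgeR 4.0.16, robust, R 4.3.3). There were 6 contrasts: HG against NG, HG+CD200Fc against NG+CD200Fc, NG+CD200Fc against NG, HG+CD200Fc against HG, HG+CD200Fc against NG, and the interaction. P-values were adjusted by Benjamini-Hochberg over all genes within each contrast, with a threshold of 0.05. Errors of fold changes are standard errors from the model, with 95% intervals, and those of levels are SD over 3 libraries. On simulated data with known changes the script was tested before use.

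The members, gene lists, naming rule and tests were chosen with earlier results of these data known. Named were the 10 members, up to 4 genes of each list with the smallest p in HG against NG and up to 2 in each other contrast among those that passed, the 3 genes most correlated with each member, and *Txnip* and *Cd200r1* as checks. *Cd200r1* passed in none of the contrasts. Some genes that the rule names are not reported here. *Adam10*, *Adam17*, *Sirpb1a*, *Mitf*, *Tfec*, *Axl*, *Sall1*, *Cx3cr1* and *P2ry12*, and the pairs of members with a correlation, were named after their values were seen. Exon lengths and coordinates came from GENCODE M21 (GRCm38). Alternatives, 20 per pairwise contrast and 19 for the interaction, were a replicate block, only the groups compared, each library left out in turn, voom with quality weights (limma 3.58.1), DESeq2 1.42.0, its size factors alone, upper quartile scaling, no filter, and a stricter filter that asked for 10 counts and 1 CPM in 3 libraries.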

Additional observations from a re-analysis of the deposited data

Results flagged for a closer look

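The effect of CD200Fc differed between high and normal glucose for 4 of the 10 members, by the interaction term of the edgeR model (Benjamini-Hochberg adjusted). *Lpl*, the lipase, changed by 0.39 in high glucose and 0.021 in normal glucose (log2), a difference of 0.37 ± 0.075 (SE, adjusted p = 0.00238). *Igf1* changed by 0.28 and -0.026, a difference of 0.31 ± 0.076 (adjusted p = 0.0106). *Trem2*, with 0.18 and -0.15, had a difference of 0.32 ± 0.090 (adjusted p = 0.0241), although neither value passed on its own. *Gpnmb* had -0.23 and -0.0012, a difference of -0.22 ± 0.064 (adjusted p = 0.0291).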

How the results depend on the processing

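The count of passing members ran from 4 to 7 in HG against NG (5 as reported) and from 4 to 6 in HG+CD200Fc against HG (4 as reported), and was 0 throughout in NG+CD200Fc against NG. In HG+CD200Fc against NG+CD200Fc (2 as reported) it was 1 under upper quartile scaling, 4 without a filter, and 1 to 4 when 1 library was left out. In HG+CD200Fc against NG (5 as reported) it was 8 by limma voom, and 4 to 6 when 1 library was left out. For the interaction (4 as reported) it was 2 to 3 when 1 library was left out. Over all genes, 2559 passed by limma voom in HG+CD200Fc against NG+CD200Fc, against 1593 as reported. Without a filter 1981 of 36322 genes passed there. In HG+CD200Fc against NG, 4789 genes passed by limma voom and 2217 to 4217 when 1 library was left out, against 3903 as reported. For the interaction 974 to 1505 genes passed when 1 library was left out, against 1381 as reported. The cause of these shifts was not tested.

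The sign of *Gpnmb* in NG+CD200Fc against NG, -0.0012 as reported, turned with DESeq2 size factors (0.000348), upper quartile scaling (0.00584), the stricter filter (0.00311) and DESeq2 (0.000362). Leaving out 1 library gave -0.020 to 0.012 for it in that contrast, and -0.018 to 0.080 for *Lpl*, -0.19 to 0.068 for *Itgax* and -0.33 to 0.14 for *Cst7*. *Cst7* ran from -0.14 to 0.081 in HG against NG. In the interaction *Cst7* ran from -0.46 to 0.010, *Tyrobp* from -0.024 to 0.24 and *Spp1* from -0.016 to 0.12. None of these values passed the test. *Cd9* in HG+CD200Fc against NG lost its call under upper quartile scaling and without NG replicate 1 or 3 or HG+CD200Fc replicate 2 or 3, with adjusted p up to 0.117.

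The groups share replicate numbers, and the labels do not say whether a number marks a shared culture or day. Deviations of same-numbered libraries from their group means correlated at -0.069 to 0.18 over 18 pairs, 5 of them over 0.1. Of 12 libraries, 6 correlated best with their own number. These values cannot settle whether the numbers pair the libraries. Over all genes, 5258 passed in HG against NG with the number as a block, against 4720 as reported. The block gave 2314 genes in HG+CD200Fc against NG+CD200Fc (1593 as reported) and 2 in NG+CD200Fc against NG (0 as reported). It gave 3842 in HG+CD200Fc against HG (3408 as reported) and 4440 in HG+CD200Fc against NG (3903 as reported). For the interaction it gave 1723 (1381 as reported). With the replicate number as a block, 7 members passed in HG against NG, 3 in HG+CD200Fc against NG+CD200Fc, 0 in NG+CD200Fc against NG, 5 in HG+CD200Fc against HG, 6 in HG+CD200Fc against NG and 5 for the interaction. *Apoe*, *Itgax* and *Cst7*, at 70 to 209 reads per library, had standard errors of 0.14 to 0.21 in the pairwise contrasts, so small changes in them could be missed. The part of read depth in these errors was not tested.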
